A study of Hordeum vulgare with 30 samples.

Results

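Waterlogged roots of the winter barley varieties Pilastro and Regina were compared with waterlogged roots of Infinity and Passport. The 12 libraries were taken by variety and treatment from the 30 of the series, 6 for each side of the comparison and 3 for each variety. Pilastro and Passport are six-row varieties and Regina and Infinity are two-row varieties, so each side held 1 variety of either row type, and each variety had the same weight. Seedlings were 10 days old when 24 h of waterlogging began. Each library came from the pooled roots of 3 plants. The 12 control libraries of the same 4 varieties, kept at 0 h of waterlogging, and Golden Promise, a two-row spring variety, served as references. The study picked the winter varieties by RT-qPCR of HvHB and HvADH1 in waterlogged roots. Pilastro and Regina were picked for a strong, Passport for a weak and Infinity for an average response. HvHB and HvADH1 are therefore not independent evidence of a difference between the sides. The study also reported a principal component of these RNA-seq libraries that separated Pilastro and Regina from the other varieties, so this split was known from the same data.

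Waterlogged soil holds little oxygen, and roots then turn from respiration to fermentation. The cells express a conserved set of hypoxia-response genes, among them the fermentation enzymes alcohol dehydrogenase (ADH) and pyruvate decarboxylase (PDC) and a hemoglobin (HB) that removes nitric oxide. Group VII ethylene response factors switch these genes on when oxygen is low, and the gas ethylene, which builds up around flooded roots, acts upstream of several flooding responses. The comparison asks which transcripts set the 2 varieties with the stronger marker response apart from the other two in flooded roots, and whether the same transcripts already did so in controls.

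Total counts were 10430091 to 12193878 in the libraries of waterlogged Pilastro and Regina and 10897536 to 12277466 in those of waterlogged Infinity and Passport. Between 18529 and 19119 genes reached 10 counts on the first side and between 18551 and 19057 on the second. The summed level of 4 shoot markers, genes of photosynthesis and chlorophyll synthesis used to check for shoot tissue, was 33.5 to 42.6 CPM, counts scaled by the normalized library size, in Pilastro and Regina and 31.6 to 39.6 CPM in Infinity and Passport. Most of it came from chlorophyll synthase, and 0 of the 3 shoot markers tested differed between the sides. All reads were aligned to 1 reference variety, Morex, so a gene that is missing or divergent in a variety and a gene that is silent there cannot be told apart in these counts.

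Of 20576 genes tested, 723 were higher and 653 were lower in waterlogged Pilastro and Regina than in waterlogged Infinity and Passport, at a Benjamini-Hochberg adjusted p under 0.05 in the quasi-likelihood test of edgeR. These differentially expressed genes (DEGs) were 3.51% and 3.17% of the genes tested, or 6.69% together. Their median absolute log2 fold change was 0.89, and 334 of the higher and 293 of the lower DEGs differed at least 2-fold. The median log2 fold change of all genes tested was 0.0038. The test compares 4 varieties through the spread of their libraries. With the variety as the unit, 2 against 2, limma called 9 higher and 10 lower genes, and an exact test could not go below p = 0.333.

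Within each row type, the comparison became a pair of varieties. Pilastro differed from Passport in 1045 genes (5.08% of those tested) and Regina from Infinity in 994 genes (4.83%). Both pairs called 103 genes higher and 79 genes lower in Pilastro and Regina, which is 0.501% and 0.384% of the genes tested. The six-row pair alone called another 245 higher and 211 lower DEGs, the two-row pair alone 225 and 248, and neither pair called 150 and 115. The pairs also disagreed: 60 genes were called in opposite directions. A test of the difference between the pairs, chosen after the data were seen, called 779 genes (3.79%), of which 412 were DEGs of the sides and 11 were called in both pairs.

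**Figure D1:**
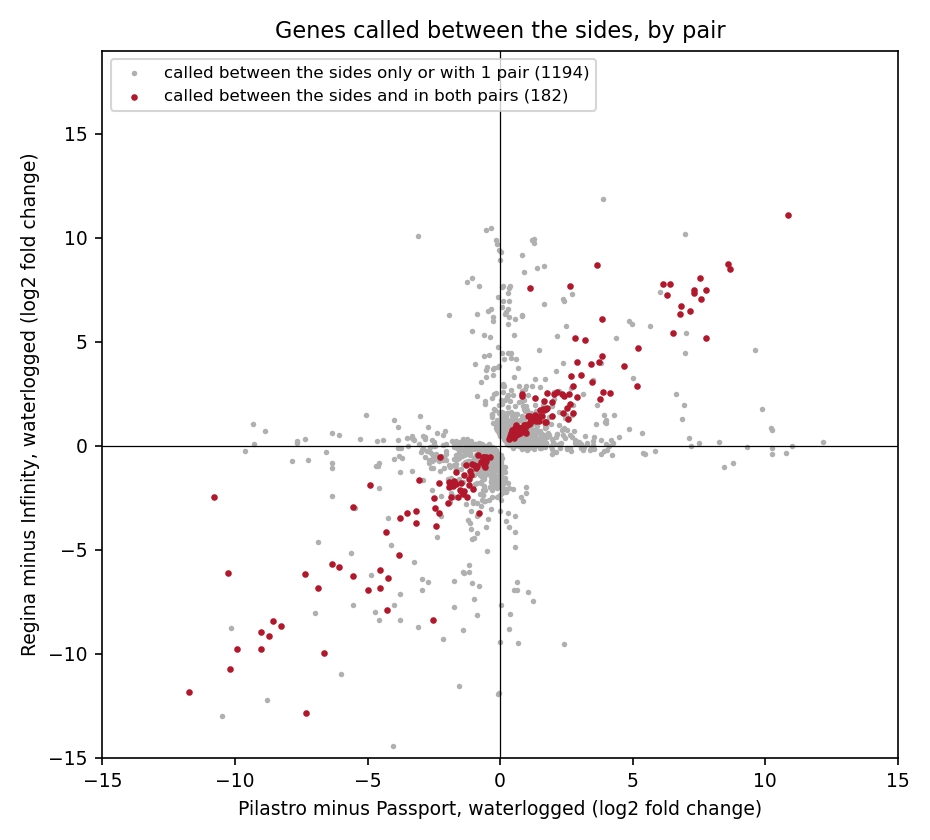
Log2 fold change of Pilastro over Passport (x axis) and of Regina over Infinity (y axis) in waterlogged roots for the 1376 DEGs of the sides, 1 point per gene. The 182 genes called in both pairs (red) lie along the diagonal, while many of the other DEGs (grey) lie near an axis, with a small difference in 1 of the pairs.

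Varieties of 1 side could be far apart. In 292 DEGs Pilastro and Regina differed more from each other than the sides did, in 451 Infinity and Passport did so, and in 691 the sides differed more than the varieties within either. For 208 higher and 150 lower DEGs, no library of Pilastro or Regina overlapped any library of Infinity or Passport, against 2.08% of all genes tested, and in controls the libraries of the sides were apart for 1.61% of all genes tested. In 136 higher and 107 lower DEGs, at least 1 of the 4 varieties had 3 counts or fewer in each waterlogged library, and fitted fold changes of such genes depend on the small count that the model adds. Without them, the median absolute log2 fold change of the DEGs was 0.74.

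Among the genes called in both pairs with libraries that did not overlap and with at least 5 CPM on the higher side, 59 were higher and 48 were lower in Pilastro and Regina. A description was at hand for 18 and 20 of them, and the 10 with the largest change in their weaker pair are described for each direction. Descriptions were at hand mainly for genes of chromosome 1H and for names early in the alphabet, so the named genes are not a sample of all functions. Identifiers are those of the Morex version 3 annotation, written without their common prefix.

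The gene described as Glutamate--tRNA ligase (1HG0044370), an enzyme that loads glutamate onto its tRNA, had reads on one side and none on the other. It had 18.5, 18.4 and 22.9 CPM in waterlogged Pilastro and 21.5, 24.4 and 24.4 CPM in waterlogged Regina, against 0 counts in all 6 libraries of waterlogged Infinity and Passport. The sides were therefore fully apart, and the level was at least 81.9-fold higher in Pilastro and Regina, counting 3 reads in each library of the other side as the floor. Control roots showed the same split, with 0 counts in the 6 control libraries of Infinity and Passport, and waterlogged Golden Promise had 24.1 to 27.4 CPM.

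Vacuolar protein sorting-associated protein 52 (1HG0045540), a part of a complex that tethers vesicles at the Golgi, had 40.5, 30.2 and 41.4 CPM in waterlogged Pilastro and 44.6, 35.4 and 47.1 CPM in waterlogged Regina. It had 6.13, 1.90 and 3.85 CPM in waterlogged Infinity and 3.96, 5.15 and 4.42 CPM in waterlogged Passport. All 6 libraries of the first side lay above all 6 of the second, and the log2 fold change was 3.23 ± 0.18 (SE) with an edgeR adjusted p of 7.43e-12. ERD4 (1HG0047780), named for its early response to dehydration in Arabidopsis, behaved alike. Its levels were 27.6 to 33.7 CPM in the 6 libraries of waterlogged Pilastro and Regina and 3.47 to 6.94 CPM in those of Infinity and Passport (log2 fold change 2.42 ± 0.12). Neither gene differed detectably between the pairs, with edgeR adjusted p values of 0.81 and 0.91 for that difference.

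The gene for 3-dehydroquinate synthase (4HG0403490), an enzyme of the shikimate pathway to aromatic amino acids and phenolics, varied little within the sides. It had 19.1, 19.6 and 19.2 CPM in waterlogged Pilastro and 20.0, 19.2 and 20.0 CPM in waterlogged Regina. It had 7.27, 6.47 and 8.36 CPM in waterlogged Infinity and 6.46, 5.64 and 7.01 CPM in waterlogged Passport. The log2 fold change was 1.51 ± 0.08 (SE), with 1.60 in the six-row and 1.42 in the two-row pair. Golden Promise, with 7.63 to 8.37 CPM after waterlogging, was at the level of Infinity and Passport here.

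The other 6 described genes of the higher group covered several functions. The long-chain-alcohol oxidase 1HG0042440, which oxidizes fatty alcohols, averaged 7.56 ± 2.91 CPM in waterlogged Pilastro and Regina and 0.579 ± 0.218 CPM in Infinity and Passport. These SDs run over the 6 libraries of a side, 3 per variety, and mix the spread within and between its varieties. The DNL-type zinc finger gene 1HG0013700, of a family that assists organelle chaperones in yeast, averaged 14.0 ± 2.23 against 4.06 ± 0.531 CPM. The Alpha/beta-Hydrolases superfamily gene 4HG0337920 averaged 22.8 ± 3.53 against 10.6 ± 1.29 CPM. Changes were about 2-fold in the RNA-binding KH domain gene 1HG0037620 (log2 fold change 0.94 ± 0.16, SE) and in the mismatch repair gene MutS 1HG0050110 (0.97 ± 0.15). The sixth, RPP13 (1HG0004350), belongs to the resistance genes described further on. Of genes without a description, 2HG0138060 led, with 30.9 to 60.1 CPM in waterlogged Pilastro and Regina and 0.0939 to 0.666 CPM in Infinity and Passport, followed by 1HG0089140 with a log2 fold change of 3.88 ± 0.41.

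In the lower group, the NAC domain gene 1HG0022790, a member of a plant transcription factor family, had 0 counts in the 6 libraries of waterlogged Pilastro and Regina. Waterlogged Infinity had 10.3, 7.81 and 9.77 CPM and waterlogged Passport 10.7, 12.01 and 8.43 CPM. The level in Pilastro and Regina was at least 36.5-fold lower, on the same floor of 3 reads per library, and it was 0 in their controls as well. Golden Promise, with 5.92 to 7.24 CPM after waterlogging, stood with Infinity and Passport.

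RNA 3'-terminal phosphate cyclase (1HG0048590), which closes the 3' phosphate of RNA ends, was the most abundant of the 10 described lower genes in Infinity and Passport. It had 0.762, 0.495 and 0 CPM in waterlogged Pilastro and 0 counts in waterlogged Regina, against 82.2, 87.6 and 69.9 CPM in waterlogged Infinity and 69.98, 66.6 and 69.1 CPM in waterlogged Passport. Golden Promise had 0 counts in all waterlogged libraries and so stood with Pilastro and Regina. The fitted differences of the pairs, -7.32 in the six-row and -12.85 in the two-row pair on the log2 scale, rest on counts at or near 0.

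The SKP1-like gene 5HG0493560 is of the family of adaptors in SCF ubiquitin ligases. It averaged 1.32 ± 0.832 CPM in waterlogged Pilastro and Regina and 27.0 ± 2.41 CPM in Infinity and Passport (SD over 6 libraries, 3 per variety). The log2 fold change was -4.53 ± 0.24 (SE). The F-box gene 1HG0042080, of the family that picks the targets of these ligases, had 1.66 to 2.77 CPM in waterlogged Pilastro and Regina and 20.9 to 27.6 CPM in Infinity and Passport (-3.62 ± 0.14). Another F-box gene, 6HG0630680, picked after its values were seen, was higher in Pilastro and Regina (1.77 ± 0.41). The pattern of Golden Promise differed between the lower ones, as it had 35.9 to 41.0 CPM of the SKP1-like gene and 1.21 to 2.05 CPM of the F-box gene.

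A 12-oxophytodienoate reductase-like gene (1HG0002380) is of the enzyme family that also holds the jasmonate-forming reductase. It averaged 1.48 ± 0.307 CPM in waterlogged Pilastro and Regina and 27.9 ± 7.26 CPM in Infinity and Passport (SD over 6 libraries, 3 per variety). Valine--tRNA ligase (1HG0049110) had 9.07 to 12.8 CPM against 30.6 to 36.8 CPM. The gene of tim23 (1HG0005590), a channel for protein import into mitochondria, averaged 5.27 ± 2.20 against 17.4 ± 2.36 CPM, and that of a Rhomboid-like membrane protease (3HG0230170) averaged 1.67 ± 0.868 against 6.32 ± 0.675 CPM. All 6 libraries of Pilastro and Regina were below all 6 of Infinity and Passport in each. The remaining pair of described genes, 1HG0003200 and 2HG0097510, are resistance genes. Of the genes without a description, 2HG0104380 and 4HG0410110 had 0 counts in all libraries of Pilastro, Regina and Golden Promise after waterlogging, against means of 38.2 and 15.5 CPM in Infinity and Passport.

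**Figure D2:**
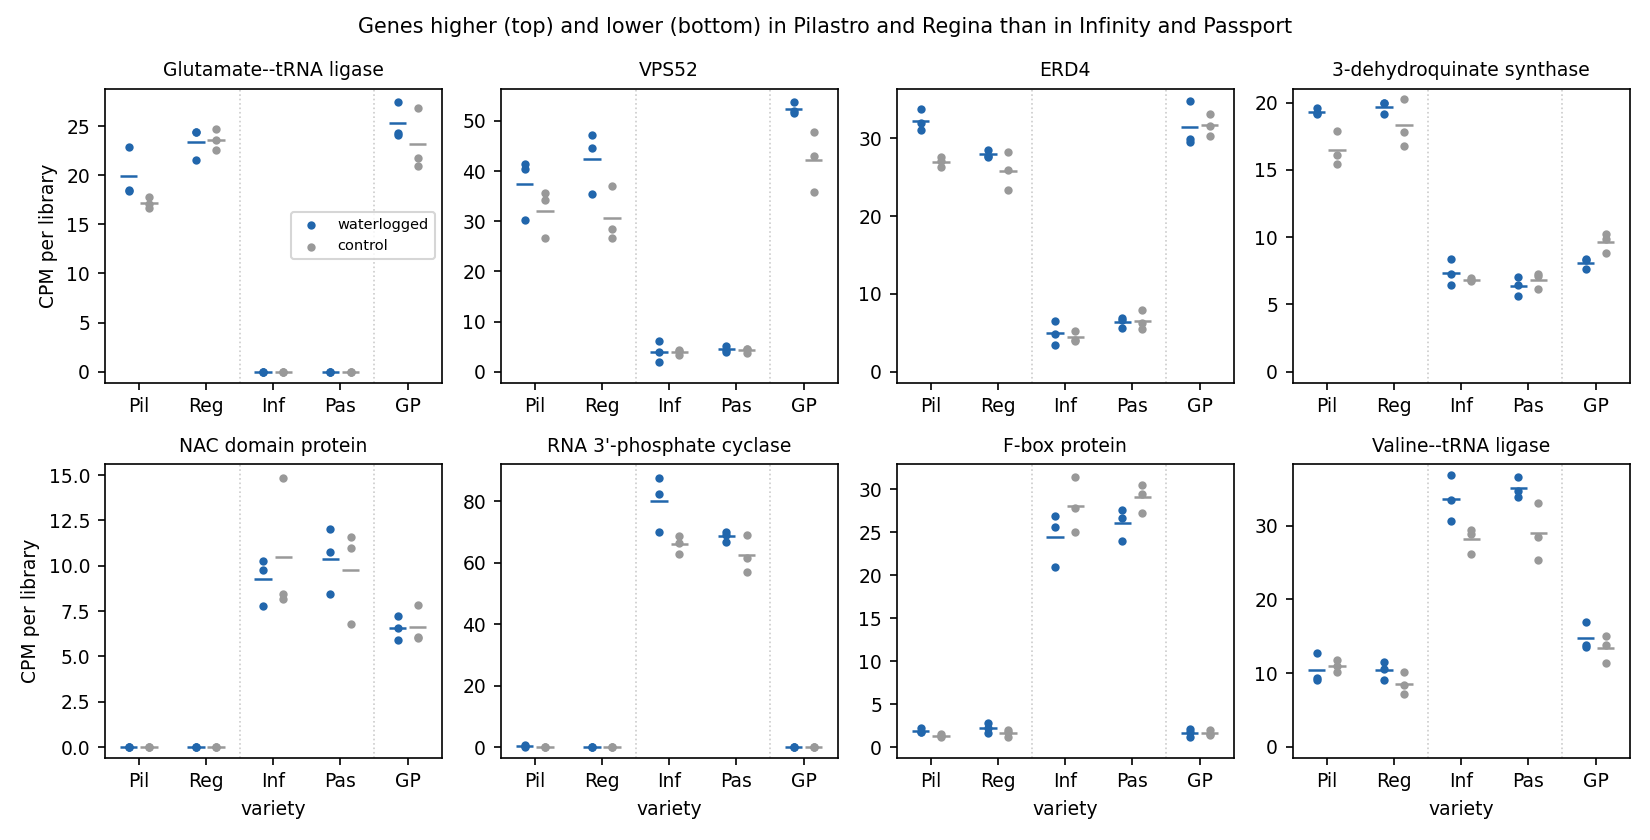
CPM per library (points) and group means (lines) of 4 genes higher and 4 genes lower in Pilastro (Pil) and Regina (Reg) than in Infinity (Inf) and Passport (Pas), with Golden Promise (GP), for waterlogged (blue) and control (grey) roots, 3 libraries a group. In each panel the libraries of Pilastro and Regina do not overlap those of Infinity and Passport in either treatment, and Golden Promise stands with the first side in some panels and with the second in others.

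Genes at or near 0 on one side only were few. With at most 3 counts in each of the 6 waterlogged libraries of one side and at least 30 in each of the other, 11 genes were near 0 in Pilastro and Regina and 4 were near 0 in Infinity and Passport. The imbalance depended on the limits, with 9 and 7 genes at limits of 0 and 10 counts and 4 and 2 genes at 10 and 100 counts. With the limits of 3 and 30 counts, all 15 kept to 5 counts or fewer in the 6 controls of the side where they were near 0. Golden Promise had at least 10 counts in each library for 5 of the 11 and for 3 of the 4. A run of neighbors on chromosome 2H, 2HG0104380 and the genes next to it on either side in the list of tested genes, were all at 0 in waterlogged Pilastro and Regina and at 0 in Golden Promise.

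A group of like genes was picked out after the values were seen. Plant resistance genes of the NBS-LRR type code for receptors that detect pathogens inside the cell, and they lie in clusters of similar copies that vary between varieties. Of 56 genes tested in the described stretch of chromosome 1H whose description names a resistance protein, 23 were higher and 8 were lower in waterlogged Pilastro and Regina, or 55.4%, against 8.52% of all 1854 described genes of 1H. Among the 37 with identifiers up to 1HG0007000, at the start of the chromosome, 20 were higher and 8 were lower (75.7%), and of the other described genes there 20.6% were called, against 6.69% of all genes tested. In controls, 33 of the 56 were called. Both pairs called 8 of the 31, and in 16 of them at least 1 variety had 3 counts or fewer. Reads shared between near-identical copies may have been split among them, which was not tested.

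Values differed widely within the group. The NBS-LRR gene 1HG0012650 had 5.25, 4.62 and 5.99 CPM in waterlogged Pilastro and 4.92, 4.77 and 3.63 CPM in waterlogged Regina, against 0 counts in waterlogged Infinity and 0.565, 0.327 and 0.334 CPM in waterlogged Passport. RPP13 (1HG0004350), named for a downy mildew resistance gene of Arabidopsis, had 6.10 to 13.9 CPM in waterlogged Pilastro and 3.92 to 6.27 CPM in Regina, against 0 to 0.188 CPM in Infinity and 0.490 to 0.751 CPM in Passport. The sides did not overlap in either gene. An RPM1 gene (1HG0003200), of the kind that detects a bacterial effector in Arabidopsis, went the other way, with 0 to 2 counts per library in waterlogged Pilastro and Regina and 91 to 176 counts in Infinity and Passport.

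A further pair of RPM1 genes, close to each other by identifier, also went opposite ways. The gene 1HG0003230 had 0 counts in all 6 libraries of waterlogged Pilastro and Regina and 0.472 to 0.888 CPM in Infinity and Passport, while 1HG0003260 had 3.05 to 6.79 CPM in Pilastro and Regina and 0 to 2.35 CPM in Infinity and Passport. On chromosome 2H, the NBS-LRR gene 2HG0097510 had at most 2 counts per library in waterlogged Pilastro and Regina, against 41.8 to 44.9 CPM in Infinity and 11.5 to 17.7 CPM in Passport. Other members rested on 1 pair: 1HG0002940, 1HG0002950, 1HG0003000 and 1HG0003010, a run of 4 higher genes, had log2 fold changes of 3.78, 6.50, 4.36 and 3.68 in the two-row pair and -0.50, -0.45, -0.43 and -0.26 in the six-row pair.

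DEGs of 1 direction stood beside each other more often than their share among all genes. After a higher DEG, the next tested gene on the chromosome was also higher in 12.6% of cases, against 3.51% of all genes, and after a lower DEG it was also lower in 11.2%, against 3.17%. In all, 29 runs of 3 to 5 tested genes in a row were called in 1 direction, 19 higher and 10 lower. The longest was a run of 5 higher genes on 1H, all described as resistance proteins, from 1HG0004300 to 1HG0004450. Only 1HG0004350 (RPP13) of this run was called in both pairs. In the six-row pair 1HG0004300, 1HG0004340 and 1HG0004370 were not called, with log2 fold changes of 0.84, 0.91 and -0.88. There 1HG0004450 was called in the opposite direction (-1.93), so the run rested mainly on the two-row pair. Windows of 50 tested genes held a median of 2 DEGs, 77 of 407 full windows held 0, and the richest held 21 (13 higher and 8 lower), near the start of 1H. By chromosome, the share of DEGs was between 5.39% on 5H and 8.32% on 7H.

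**Figure D3:**
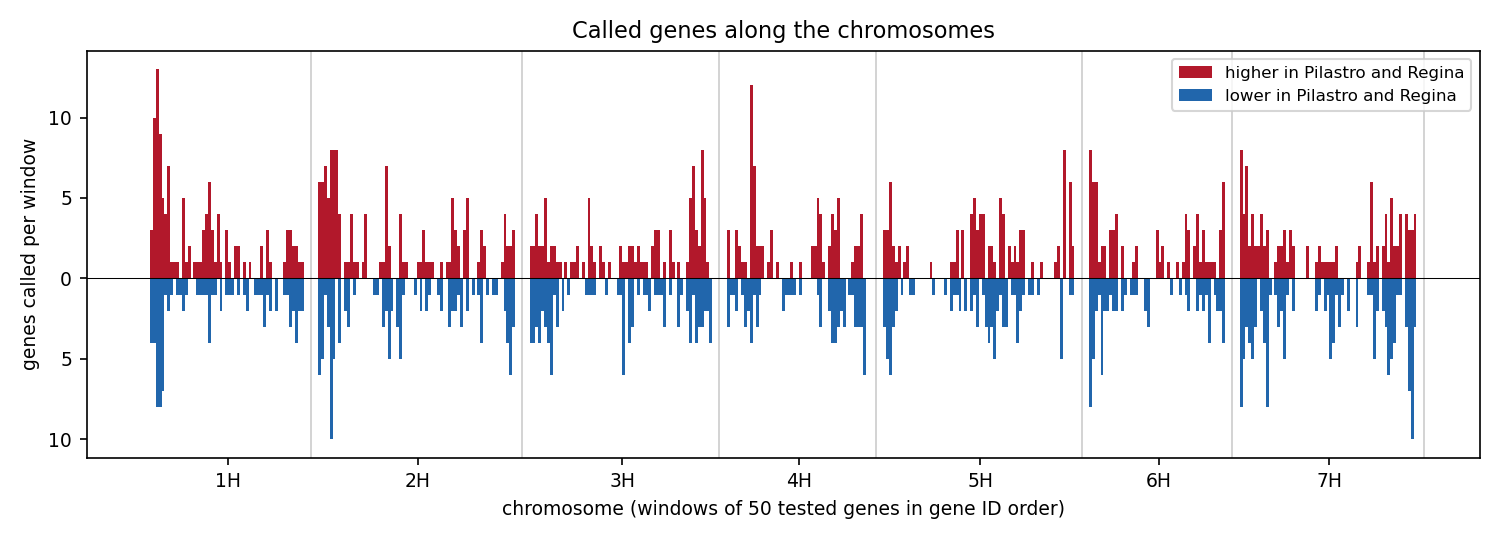
Number of DEGs in each window of 50 tested genes in gene ID order along the 7 chromosomes, higher (red, upward) and lower (blue, downward) in waterlogged Pilastro and Regina. Windows near the start of 1H, 2H, 6H and 7H and 1 on 4H hold up to 21 DEGs in both directions, against a median of 2.

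Control roots of the same varieties, whose libraries are not shared with the comparison above, showed largely the same differences. In controls, 633 genes were higher and 622 lower in Pilastro and Regina, which is 3.08% and 3.02% of the genes tested, or 6.10% together. Of the 723 DEGs higher after waterlogging, 707 had the same sign in controls and 437 were called there too, and of the 653 lower DEGs these were 637 and 411. Not 1 was called in the opposite direction. Of the 182 genes called in both pairs, all had the same sign in controls, and 99 of the 103 higher and 77 of the 79 lower were called there. Across the 1376 DEGs the log2 fold changes of both treatments had a Pearson r of 0.937, and across all genes tested 0.631; genes are not independent replicates, and the DEGs were picked for their size in 1 of the treatments.

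Taken along its sign after waterlogging, the median log2 fold change of the 1133 DEGs with no variety near 0 was 0.74 after waterlogging, where they were selected, and 0.59 in controls. The test of the change itself, the interaction of side and treatment, called 0 genes (edgeR) at an adjusted p under 0.05. DESeq2 called 16. An unadjusted edgeR p under 0.05 was found for 862 of the 20576 genes tested, a smaller share than that threshold.

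**Figure D4:**
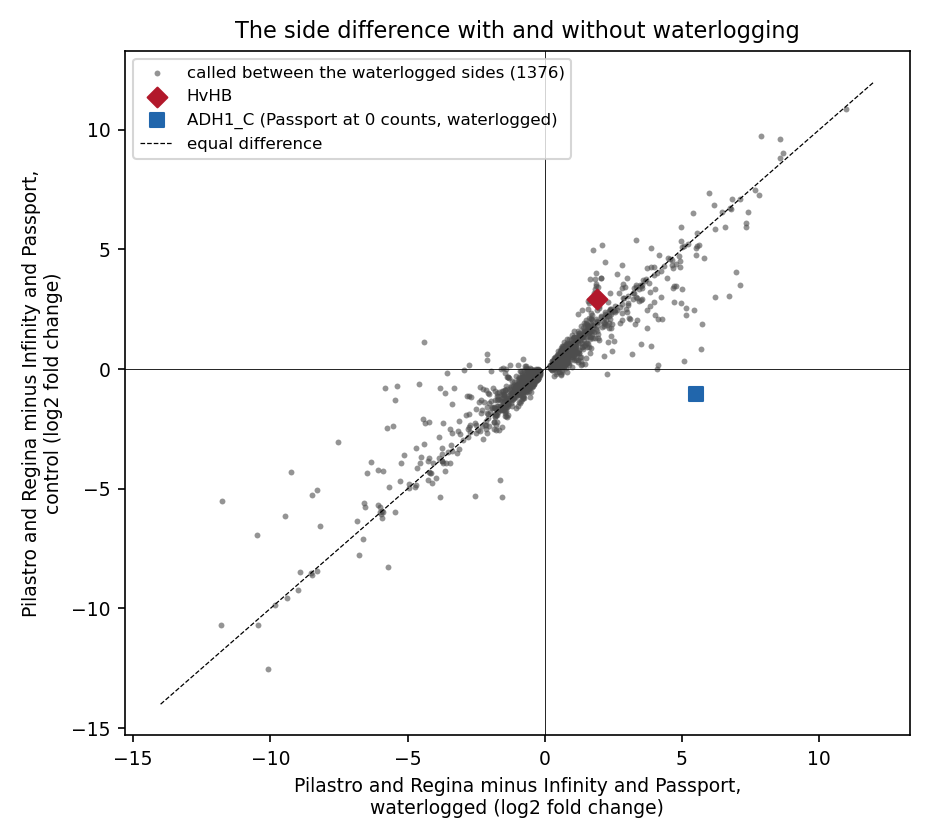
Log2 fold change of Pilastro and Regina over Infinity and Passport in waterlogged (x axis) and control (y axis) roots for the 1376 DEGs of the waterlogged comparison, 1 point per gene, with the line of equal difference. Most points lie along the line (r = 0.937), HvHB (red diamond) lies near it, and ADH1_C (blue square), for which waterlogged Passport had 0 counts, lies far from it.

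The described genes with the smallest unadjusted p in this interaction test were a Heparanase (7HG0657870), ADH1_C (3HG0252910) and a Beta-galactosidase (1HG0066860), a cell wall enzyme. Each had an edgeR adjusted p of 1, and in each 1 variety had 0 counts after waterlogging. Heparanase had 0 counts in waterlogged Passport and 0.822 to 1.23 CPM in control Passport, against 0.846 to 3.12 CPM in waterlogged Pilastro and Regina. Beta-galactosidase had 0 counts in waterlogged Regina, with 0, 1.33 and 1.16 CPM in its controls, while waterlogged Pilastro had 2.39 to 3.39 CPM.

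Of the 14 hypoxia-response genes that the study names, 2 were higher in waterlogged Pilastro and Regina and 0 were lower (14.3% called, against 6.69% of all genes). The log2 fold changes of these 14 were all above 0, with a median of 0.27, against 0.0038 for all genes. Those of ADH1_B and of the homologs of HRE2 and RAP2.3 on 1H turned slightly negative without single libraries. In controls 5 of the 14 were above 0, with a median of -0.15. Members of this set move together between libraries, so their signs are not 14 separate observations. The 14 include HvHB and HvADH1, by which the varieties were chosen, so these counts are drawn in part from the selection. The 2 called genes were HvHB and ADH1_C. The study also names 6HG0621670, counted here with its candidate genes from quantitative trait loci, as a homolog of HRE2, and this gene was lower in waterlogged Pilastro and Regina (-0.52 ± 0.11).

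HvHB (4HG0394960), the hemoglobin, was 1 of the 2 genes by which the varieties were chosen. It had 1137, 850 and 1079 CPM in waterlogged Pilastro and 903, 1206 and 681 CPM in waterlogged Regina. It had 633, 328 and 124 CPM in waterlogged Infinity and 158, 197 and 200.2 CPM in waterlogged Passport. The sides did not overlap, although the highest library of Infinity came close to the lowest of Regina, and Golden Promise lay below all, at 20.7 to 68.7 CPM. The log2 fold change between the sides was 1.91 ± 0.51 (SE) with an edgeR adjusted p of 0.0227. It was 2.46 in the six-row and 1.36 in the two-row pair, neither of which passed the test. The call was lost with DESeq2 (adjusted p = 0.0512) and without any 1 of 6 libraries, the second or the third of waterlogged Infinity, the second of waterlogged Regina or any of waterlogged Passport (edgeR's adjusted p 0.0126 to 0.0627 over all libraries left out in turn).

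Before waterlogging HvHB already differed, by 2.95 on the log2 scale (edgeR adjusted p 0.00136). Control Pilastro had 36.9, 288 and 141 CPM and control Regina 44.0, 10.95 and 8.84 CPM, against 11.5, 1.86 and 3.96 CPM in control Infinity and 7.02, 14.0 and 7.54 CPM in control Passport. All 3 libraries of Pilastro and 1 of Regina lay above those of Infinity and Passport, whereas 2 of Regina lay within their range. The rise of waterlogged over control roots, which uses the same libraries as both comparisons, was 2.72 in Pilastro, 5.45 in Regina, 5.95 in Infinity and 4.28 in Passport on the log2 scale.

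Neither HvADH1 nor HvPDC1 was called between the sides. HvADH1 (4HG0345760), the second gene of the selection, had 653, 426 and 829 CPM in waterlogged Pilastro and 1004, 867 and 608 CPM in waterlogged Regina, against 1410, 730 and 280 CPM in waterlogged Infinity and 468, 422 and 478 CPM in waterlogged Passport. The sides overlapped, with libraries of Infinity at both extremes, and the log2 fold change was 0.26 ± 0.35 (edgeR adjusted p 0.76). HvPDC1 (4HG0384560) had 954 to 2019 CPM in waterlogged Pilastro and Regina and 390 to 2351 CPM in Infinity and Passport (0.43 ± 0.30, edgeR adjusted p 0.491). The third library of waterlogged Infinity was the lowest of its variety in every gene of the set but the RAP2.12 homolog. Without that library ADH1_B and the homologs of HRE2 and RAP2.3 on 1H turned to slightly negative differences. The homologs of HRE2 and RAP2.3 on 1H did so too without single waterlogged libraries of Passport, Pilastro or Regina, so their signs were not settled.

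ADH1_C (3HG0252910) was called between the sides, but its difference rested on Passport. It had 23.9, 14.8 and 27.8 CPM in waterlogged Pilastro and 29.9, 30.1 and 18.0 CPM in waterlogged Regina, against 44.9, 23.6 and 8.73 CPM in waterlogged Infinity and 0 counts in waterlogged Passport. The two-row pair had a log2 fold change of 0.01, and the pairs differed (edgeR adjusted p 0.00437). ADH1 genes are similar copies, and how the reads were shared among them was not tested. The homologs in this set of the Arabidopsis group VII factors HRE1, HRE2, RAP2.3 and RAP2.12 had differences between 0.03 and 0.33 on the log2 scale, and none of these was called, unlike the lower HRE2 homolog 6HG0621670.

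**Figure D5:**
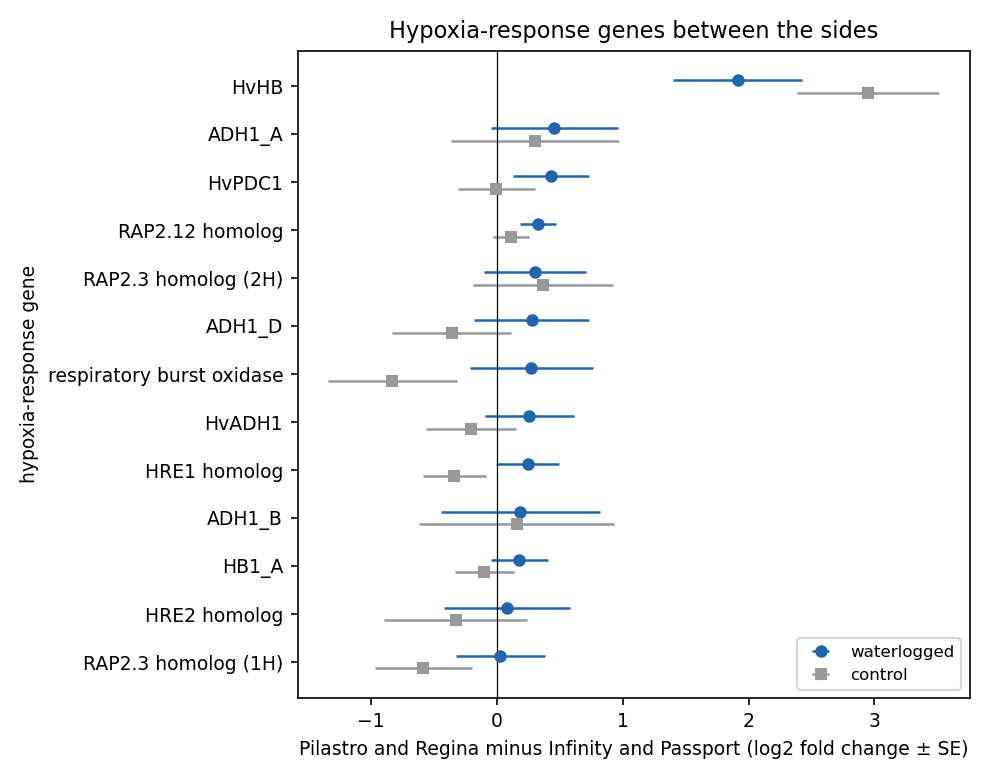
Log2 fold change (± SE) of Pilastro and Regina over Infinity and Passport for 13 hypoxia-response genes in waterlogged (blue) and control (grey) roots, from the edgeR fit. HvHB stands apart in both treatments (1.91 and 2.95), the other waterlogged values lie between 0.03 and 0.46, and ADH1_C is left out because waterlogged Passport had 0 counts.

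Of the 7 genes that the study names as lowered by waterlogging, 1 was lower in Pilastro and Regina and 0 were higher (14.3%, against 6.69% of all genes). This nitrate transporter (7HG0700030), which takes up soil nitrogen, had 54.2, 84.1 and 54.6 CPM in waterlogged Pilastro and 54.9, 39.6 and 50.9 CPM in waterlogged Regina, against 69.2, 105 and 111 CPM in waterlogged Infinity and 93.6, 89.7 and 90.9 CPM in waterlogged Passport. A single library of Pilastro overlapped the other side. The log2 fold change was -0.74 ± 0.15 (edgeR adjusted p 0.00245), and in controls -0.56 (0.023).

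Of 13 genes of ethylene synthesis, 2 were higher and 0 were lower (15.4%, against 6.69% of all genes). Lists of gene families such as this were drawn from genes with a description, and of the described genes tested 8.21% were called. The median log2 fold change of the 13 was -0.06, with 5 of them above 0. The higher ones were 2 neighboring genes for 1-aminocyclopropane-1-carboxylate (ACC) oxidase, the enzyme that releases ethylene. The first, 5HG0485780, had 158, 97.1 and 219 CPM in waterlogged Pilastro and 27.6, 38.5 and 19.5 CPM in waterlogged Regina. It had 19.3, 14.5 and 4.70 CPM in waterlogged Infinity and 11.3, 7.36 and 11.8 CPM in waterlogged Passport. No library of the sides overlapped, but Pilastro carried most of the difference: the log2 fold change was 3.96 in the six-row and 1.16 in the two-row pair, and the pairs differed (edgeR adjusted p 0.00542).

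The second ACC oxidase, 5HG0485790, followed the same order, and neither of these genes was called in both pairs. It had 55.9, 38.6 and 65.7 CPM in waterlogged Pilastro and 20.9, 23.0 and 17.2 CPM in waterlogged Regina, against 13.4, 15.0 and 7.79 CPM in waterlogged Infinity and 10.6, 8.34 and 12.5 CPM in waterlogged Passport. Between the sides the log2 fold changes were 2.56 ± 0.31 for the first and 1.55 ± 0.18 for the second gene, with edgeR adjusted p values of 4.00e-06 and 2.40e-06. In controls they were 2.4 and 0.94, both called. Golden Promise had 36.8 to 72.0 CPM of the first gene after waterlogging, and 2 of its 3 libraries lay above all 3 of Regina.

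Of the 28 candidate genes for waterlogging tolerance that the study took from quantitative trait loci, 21 were tested, with 1 higher and 1 lower (9.52%, against 6.69% of all genes). The Potassium transporter 7HG0736590 had 2.00 to 2.61 CPM in waterlogged Pilastro and Regina and 0.646 to 1.41 CPM in Infinity and Passport, without overlap (log2 fold change 1.35 ± 0.33, edgeR adjusted p 0.0108). The ethylene-responsive transcription factor gene 6HG0621670, the HRE2 homolog given above, was lower (-0.52 ± 0.11). Its libraries overlapped, because Passport, at 95.6 to 126 CPM, was at the level of Pilastro and Regina, at 79.6 to 125 CPM, while Infinity had 162 to 219 CPM.

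Of 30 alcohol dehydrogenases tested, 3 were higher, ADH1_C among them, and 1 was lower (13.3%, against 6.69% of all genes and 8.21% of described genes). Each of the 3 higher ones rested mainly on 1 variety. The gene 6HG0601820 had 51.9 to 60.4 CPM in waterlogged Pilastro and 63.4 to 69.95 CPM in Regina, against 9.67 to 12.8 CPM in Infinity and 43.5 to 57.8 CPM in Passport. Alcohol dehydrogenase 3 (6HG0627090) was high in waterlogged Regina, at 20.9 to 22.9 CPM, and at 5.16 to 6.57 CPM in Pilastro, against 4.47 to 5.19 CPM in Infinity and 4.04 to 6.95 CPM in Passport. The putative alcohol dehydrogenase 3HG0313010 was the lower one, with 4.33 to 10.4 CPM in Pilastro and Regina and 10.9 to 29.8 CPM in Infinity and Passport.

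The remaining lists held few DEGs, and their shares are to be read beside the 6.69% of all genes and 8.21% of described genes called. Of 84 ABC transporters, pumps that use ATP, 4 were higher and 1 was lower (5.95%), led by the G family member 3HG0283500 with 6.12 to 27.8 CPM in waterlogged Pilastro and Regina and 0.845 to 8.34 CPM in Infinity and Passport. Of 80 oxygenases that depend on 2-oxoglutarate and iron, 4 were higher and 3 were lower (8.75%). The highest fitted change among them, in 7HG0663570, came from 0 counts in Passport, while the levels in Pilastro and Regina, 9.26 to 15.4 CPM, overlapped those of Infinity, 7.52 to 20.3 CPM. In this list 2HG0105050 was called in both pairs and lower on the side of Pilastro and Regina, at 10.3 to 18.1 against 18.8 to 31.6 CPM.

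Of 50 amino acid transporters, 0 were higher and 3 were lower, and this share of 6% is near the background of 6.69%. Among them was 7HG0735780, with 12.1 to 18.5 CPM in waterlogged Pilastro and Regina and 19.8 to 27.8 CPM in Infinity and Passport. Of 19 agmatine coumaroyltransferases, which begin the synthesis of the antifungal hordatines of barley, 0 were higher and 3 were lower (15.8%, against 8.21% of described genes). The most abundant, 2HG0215740, was low in waterlogged Pilastro, at 1.08 to 3.64 CPM, and at 14.5 to 24.8 CPM in Regina, against 15.6 to 37.7 CPM in Infinity and Passport. Another, 2HG0097350, had 0 counts in waterlogged Pilastro and Regina and 0 to 1.13 CPM in Infinity and Passport, and its call was lost with the replicate number as a block (edgeR adjusted p 0.0531). Of 8 aluminum-activated malate transporters, anion channels of the root, 0 were higher and 2 were lower (25%, against 8.21% of described genes). The calls of both, 6HG0612110 and 7HG0710910, were lost without single libraries and in the fit of the 12 waterlogged libraries alone.

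Chitinases, which attack fungal cell walls, held 1 higher and 1 lower gene of 7 (28.6%, against 8.21% of described genes). Acidic chitinase 2HG0100710 was called in both pairs, with 0.974 to 4.21 CPM in waterlogged Pilastro and Regina and 0 to 0.0817 CPM in Infinity and Passport. The lower one, 3HG0300110, was set by Infinity, at 10.4 to 21.2 CPM, against 3.05 to 4.78 CPM in Pilastro and Regina and 2.91 to 4.66 CPM in Passport. Of 14 3-ketoacyl-CoA synthases, which extend the fatty acids of waxes and suberin, 2 were higher and 0 were lower (14.3%, against 8.21% of described genes). The call of 1 of them, 1HG0087040, was lost with the same block (edgeR adjusted p 0.0511).

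Among 27 genes listed for starch and sucrose breakdown, 2 were higher and 2 were lower (14.8%, against 8.21% of described genes). Of the lower, 1 gene, 7HG0663130, is described as an inhibitor of alpha-amylase. Of 13 4-coumarate-CoA ligases 1 was higher (7.69%), of 48 actin and ADP-ribosylation factor genes 1 was higher (2.08%), of 23 genes of abscisic acid 1 was lower (4.35%) and of 35 genes of the 26S proteasome 1 was lower (2.86%). That proteasome gene, 6HG0572290, was high in waterlogged Passport alone, at 41.1 to 57.0 CPM, against 10.6 to 16.4 CPM in the other 3 varieties. None of 16 aldehyde dehydrogenases, 26 chaperones and 7 amine oxidases was called, and their median log2 fold changes were -0.06, 0.03 and -0.03. Of the RT-qPCR reference genes, HvTUBULIN had a difference of -0.12 and HvHSP70 of -0.23 (edgeR adjusted p 0.0779, DESeq2 0.00139).

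In Golden Promise the mean log2 CPM after waterlogging was nearer to that of Pilastro and Regina for 428 of the 723 higher DEGs (59.2%) and for 359 of the 653 lower DEGs (55.0%). Among the genes called in both pairs it was nearer to Pilastro and Regina for 58 of 103 higher (56.3%) and 42 of 79 lower genes (53.2%). Its control libraries were also set against the waterlogged levels of the winter varieties, so treatment and variety both enter that comparison. The shares were then 53.5% and 52.2% of the higher and lower DEGs. Among those called in both pairs they were 50.5% and 46.8%, so the last turned to the other side.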

How the data were processed

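Counts per gene were analyzed for 30 libraries of 5 barley varieties, of which the 12 waterlogged libraries of Pilastro, Regina, Infinity and Passport form the main comparison. The authors aligned single-end reads with Bowtie2 2.4.5 to Morex genome version 3, processed them with SAMtools 1.15.1 and obtained counts with StringTie 2.1.7. The deposited values are these whole-number counts, not normalized. How strand and reads matching several genes were handled is not given in the sources used here. Bowtie2 does not split reads across introns.

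Groups came from the labels, and 0 columns were left unused. Genes were tested with edgeR 4.0.16 in R 4.3.3 (TMM, filterByExpr, 1 term per variety and treatment, all 30 libraries, common dispersion 0.0653), with contrasts that weighted varieties equally and a Benjamini-Hochberg adjusted p under 0.05 over all genes tested. CPM are relative to the TMM-scaled total. Standard errors were derived from the F statistic. Log2 CPM for distances between groups used a prior count of 2. Floors of 3 counts per library cover counting error only. The varieties, lists and rules for naming genes were chosen with earlier results of these data known. Named were the genes the study names by identifier, the 10 described genes per direction given in the report, 2 genes per direction by identifier alone, up to 4 DEGs per list by size, and the 3 described genes with the smallest interaction p. Resistance genes, and the test of the difference between the pairs, were added after the values were seen. Descriptions, from the study's supplementary tables, covered 3798 of the genes tested and 312 of the 1376 DEGs. Gene IDs had no match in the RefSeq gene table, so no sequences are shown.

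Pairing of libraries by number was checked by correlating deviations from group means over 15399 genes with a mean log2 CPM above 2. Libraries with the same number correlated at 0.167, 0.233 and 0.145 between waterlogged Pilastro and Passport and at 0.379, 0.263 and 0.316 between waterlogged Regina and Infinity, so numbers were taken to pair libraries within row types, by these correlations and because the experiment was run 3 times. Between row types most correlations were negative (Pilastro and Regina -0.131, -0.154 and -0.171), and library names give the six-row varieties other numbers (5 to 7) than the two-row varieties (1 to 3). Between waterlogged and control libraries of 1 variety with the same number, most correlations were positive, from -0.113 (Infinity, number 1) to 0.544 (Pilastro, title number 3). Libraries of 1 group differed by a chi-square of 13.7 to 54.2 per degree of freedom, so none was a duplicate. The main fit held no replicate term, and pairing by number entered only in the alternatives with a replicate block. The test was tried on simulated data. Alternatives were DESeq2 1.42.0, its size factors, 2 other filters, 2 replicate blocks, fits of 24 or 12 libraries, limma 3.58.1 with the variety as the unit, a 2-fold threshold, other limits, and leaving out each library. Figures were drawn with matplotlib.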

Additional observations from a re-analysis of the deposited data

Results flagged for a closer look

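For 15 named genes the difference between Pilastro and Passport (six-row) differed from that between Regina and Infinity (two-row) in waterlogged roots, by edgeR's test of that difference at an adjusted p under 0.05. The values below are the six-row minus the two-row log2 fold change, positive where Pilastro stood further above Passport than Regina above Infinity. Values over 5 in size rest on a variety at or near 0 counts and depend on the count that the model adds.

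Positive values were 5.53 for RNA 3'-terminal phosphate cyclase, 11 for ADH1_C, 10.6 for the 2-oxoglutarate oxygenase 7HG0663570, 0.50 for the amino acid permease-like gene 5HG0424430, 2.02 for the endochitinase 3HG0300110, 2.80 and 1.59 for the ACC oxidases 5HG0485780 and 5HG0485790, 5.58 for Heparanase and 7.69 for Beta-galactosidase. Negative values were -2.03 for the proteasome gene 6HG0572290, -2.85 for the ABC transporter 7HG0752960, -2.32 for the agmatine coumaroyltransferase 2HG0215740, -2.45 for the alcohol dehydrogenase 6HG0601820, -2.03 for alcohol dehydrogenase 3 and -5.03 for the NBS-LRR gene 1HG0012650. The groups of 3 libraries were too small to be screened for single outlying libraries.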

How the results depend on the processing

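Over the other normalization, filters, blocks and library sets, and without genes that had a variety near 0, the DEGs of the waterlogged sides numbered 550 to 829 higher and 515 to 787 lower. They were 707 and 626 with the title number as replicate block and 829 and 787 with the number in the library names as replicate block, and neither block moved any count of DEGs by over 1.5 times. With the size threshold of 2-fold, 334 higher and 293 lower DEGs, 679 and 652 genes of the six-row and two-row pair and 560 genes in controls remained. With the variety as the unit, 9 higher and 10 lower genes were called (1266 of the 20576 tested at an unadjusted limma p under 0.05). Outside the ranges given first, DESeq2 called 817 higher and 859 lower genes between the waterlogged sides. It called 16 genes in the interaction of side and treatment (952 unadjusted), where edgeR called 0. Within 5 places instead of the next gene, 33.9% of higher and 29.3% of lower DEGs had a DEG of the same direction. The 3.51% and 3.17% of all genes given above are not a background for this wider span, for which none was computed. Genes near 0 in Pilastro and Regina and in Infinity and Passport numbered 9 and 7 with the limits of 0 and 10 counts and 4 and 2 with 10 and 100. Golden Promise in its control libraries was nearer to waterlogged Pilastro and Regina in 53.5% of higher and 52.2% of lower DEGs. Among those called in both pairs the shares were 50.5% and 46.8%.

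With each library left out in turn, DEGs were 588 to 733 higher and 526 to 771 lower, 754 to 1077 and 737 to 1054 in the six-row and two-row pair, 81 to 105 higher and 59 to 89 lower in both pairs, 1007 to 1436 in controls and 0 to 2 in the interaction. Uncalled genes that turned sign without single libraries were ADH1_B (-0.022 to 0.56), the HRE2 homolog (-0.16 to 0.49), the RAP2.3 homolog on 1H (-0.11 to 0.12) and the aldehyde dehydrogenase 2HG0173750 (-0.091 to 0.0050), and the cause was not tested. Of 70 named DEGs, 6 kept the call with the variety as the unit, 57 under every other alternative that left out no single library and in which they were tested, and 56 without each library. The 14 others were HvHB, the 3-ketoacyl-CoA synthase 1HG0087040, the ABC transporters 7HG0645770 and 3HG0282640, 3HG0325170, 1HG0050970, 2HG0097350, 5HG0501580, 3HG0234440, 6HG0612110, 7HG0710910, 2HG0184450, 7HG0735650 and 3HG0256060. For 7HG0710910 and 7HG0735650 the third library of waterlogged Infinity decided the call. The block by the number in the library names took the call from 2HG0097350 (adjusted p 0.0608) and the block by title number from 2HG0097350 (0.0531) and 1HG0087040 (0.0511). The fit of the 12 waterlogged libraries alone took the call from 10 named genes, among them 2HG0186150 (0.0534). Genes of under about 1 CPM rest on few counts at this depth.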
